A study of Homo sapiens with 12 samples.

Results

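Transcript levels of 38 genes of mitosis and the G2/M transition were followed across the 12 RNA-seq libraries of the study, which are all the libraries described here. The genes were picked by symbol from the 25528 rows of the deposited table, from a list of cyclins, mitotic kinases, checkpoint and kinetochore proteins, motors and cytokinesis factors. All 38 were found, and all 38 passed the filter on low values (a mean of at least 1 TPM, a level scaled by transcript length and library) in both comparisons. The cells were HT-29, an established colon adenocarcinoma line labelled as APC mutant, so every group, controls included, carries that genotype. Cells had been infected with lentivirus. In the open reading frame arm the virus carried GFP (control, 3 libraries) or CTNNB1 (3 libraries), the gene of beta-catenin, and cells were taken 2 days after infection. In the hairpin arm it carried the control hairpin shNT1 (3 libraries) or a hairpin against APC, shAPC (3 libraries), and cells were taken 1 day after induction with 2 µM doxycycline. The question was what stronger WNT signalling does to gene expression. The arms differ in vector, day and doxycycline, so levels in one arm cannot be set against levels in the other free of these differences. The labels do not say that the 3 libraries of a group came from separate infections, so p-values measure the spread between these libraries only.

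Entry into mitosis is driven by cyclin B bound to the kinase CDK1, after cyclin A has carried the cell through S phase and G2. Polo and Aurora kinases then build the spindle, kinetochores join chromosomes to it, and the spindle assembly checkpoint holds back the anaphase-promoting complex, a ubiquitin ligase unrelated to the APC tumour suppressor despite its name, until every chromosome is attached. Transcripts of these genes are low in G1 and peak in G2 and mitosis, which makes their bulk level a common readout of how many cells are dividing. They are held down by the DREAM complex and activated by the MuvB core with B-MYB and FOXM1, through promoter elements known as the cell cycle genes homology region (CHR) and, with NF-Y, the CCAAT box. Beta-catenin with TCF/LEF factors is a separate route, best known for targets such as AXIN2 and MYC. In bulk RNA fewer cells in G2 or mitosis and less of a transcript per such cell cannot be told apart.

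Because the 38 genes are known to share promoter elements, their promoters were searched for these letters. RefSeq promoter windows (GRCh38.p14, 250 bases before to 50 after the gene start) were given for 32 of the 38, and 5 of these had more than 1 window. AURKA, BIRC5, FOXM1, TPX2, TTK and UBE2C had no entry. The CHR was searched as TTTGAA or TTCGAA, the CCAAT box as CCAAT, E2F elements as TTTGGCGC, TTTCCCGC, TTTGCCGC or TTTCGCGC, and TCF/LEF elements as CTTTGAA or CTTTGAT, each on both strands. CTTTGAA contains the CHR letters TTTGAA, so a match of that kind counts under both. CHR letters were present in 25 of the 32 genes (78.1%), against 16.4% of all 35116 windows and 15.2% of the 8910 tested genes with a window. CCAAT boxes were present in 26 of 32 (81.2%), against 34.6% of all windows and 44% of tested genes. A window with both was held by 21 of 32 (65.6%), against 6.51% of tested genes. E2F letters were found in 3 of 32 (9.38%), against 3.31% of all windows and 6.96% of tested genes, and TCF/LEF letters in 1 of 32, CDK1 (3.12%), against 6.86% and 5.59%. The windows are shown for CDC20, which holds both elements, for CCNB1, which lacks the CHR letters, and for CDC25C and MKI67, which had the largest log2 change upwards under CTNNB1 and downwards under shAPC among members with an entry that passed the test. CENPE was all but level with MKI67 (both -0.35) and holds neither CHR nor CCAAT letters. They come from chr1:43358731-43359030, plus strand (CDC20), chr5:69166900-69167199, plus strand (CCNB1), chr5:138331755-138332054, minus strand (CDC25C, 1 of its 4 windows) and chr10:128126374-128126673, minus strand (MKI67). Each is written 5′ to 3′ on the strand of the gene, with CHR and CCAAT letters of either strand in capitals.
CDC20: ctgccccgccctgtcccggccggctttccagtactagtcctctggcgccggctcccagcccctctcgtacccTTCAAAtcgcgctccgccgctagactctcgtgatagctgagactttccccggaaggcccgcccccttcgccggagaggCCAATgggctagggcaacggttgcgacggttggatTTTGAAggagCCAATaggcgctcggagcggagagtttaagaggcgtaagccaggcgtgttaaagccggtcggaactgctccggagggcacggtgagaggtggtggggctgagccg
CCNB1: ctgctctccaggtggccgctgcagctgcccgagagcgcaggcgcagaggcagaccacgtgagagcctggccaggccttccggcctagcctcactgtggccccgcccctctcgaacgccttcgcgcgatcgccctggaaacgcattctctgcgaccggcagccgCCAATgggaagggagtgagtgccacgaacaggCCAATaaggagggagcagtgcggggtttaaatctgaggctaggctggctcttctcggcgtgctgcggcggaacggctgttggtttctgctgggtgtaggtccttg
CDC25C: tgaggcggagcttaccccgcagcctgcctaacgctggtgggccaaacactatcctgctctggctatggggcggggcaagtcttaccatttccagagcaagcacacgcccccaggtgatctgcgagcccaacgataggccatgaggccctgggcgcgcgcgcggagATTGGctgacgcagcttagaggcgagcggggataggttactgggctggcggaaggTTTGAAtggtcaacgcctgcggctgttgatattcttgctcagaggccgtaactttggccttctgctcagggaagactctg
MKI67: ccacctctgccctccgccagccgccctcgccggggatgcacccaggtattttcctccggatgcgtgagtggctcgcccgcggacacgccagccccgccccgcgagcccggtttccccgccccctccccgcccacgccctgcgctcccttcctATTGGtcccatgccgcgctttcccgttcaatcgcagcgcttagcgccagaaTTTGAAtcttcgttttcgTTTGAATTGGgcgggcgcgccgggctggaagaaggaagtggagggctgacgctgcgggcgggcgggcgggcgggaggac
In CDC20 a CHR begins 65 bases before the gene start, beside CCAAT boxes that begin 100 and 55 bases before it, and CHR letters on the other strand lie farther out, at 178 bases. CCNB1 has 2 CCAAT boxes, 87 and 55 bases before its start. In the window shown for CDC25C a CHR begins 30 bases before the start and a CCAAT box, on the other strand, 85 bases before it. Of the 4 windows of this gene, 2 hold CHR and CCAAT letters and the rest hold neither. In the second window with both, the CHR begins 44 bases after the start. MKI67 has CHR letters 47 and 29 bases before its start and CCAAT boxes on the other strand 98 and 24 bases before it, the nearer of which shares a base with the nearer CHR. The matches describe letters only. The members without CHR letters in these windows were CCNB1, CCNA2, AURKB, CENPE, KIF20A, KIF2C and PTTG1. Of the members with an entry that fell under shAPC, 11 of 13 held CHR letters, as did 14 of the 19 that were not called.

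All 38 genes were well expressed in HT-29. The highest mean over the 12 libraries was that of TOP2A, the topoisomerase that untangles sister chromatids (333 TPM), followed by MAD2L1 (314), TPX2 (313) and CCNB1 (309.5), which lay within their spread of each other. The lowest was that of CENPE, a kinetochore motor (18.9 TPM), with CDC25C, the phosphatase that activates CDK1, next (27.3 TPM). Summed over the 38 genes, the libraries held 4742 ± 22 TPM in GFP, 5095 ± 342 in the CTNNB1 group, 4942 ± 191 in shNT1 and 4504 ± 119 in shAPC (SD, n = 3 each). The group mean was lowest in shAPC for 22 genes and in GFP for 15, and highest in the CTNNB1 group for 23 and in shNT1 for 11. Without CTNNB1 replicate 1 and shNT1 replicate 3 it was highest in the CTNNB1 group for 15, in shNT1 for 12, in GFP for 6 and in shAPC for 5. These orders run across the arms, which differ in vector, day and doxycycline. The same counts over all genes are not given, so the orders cannot be read as particular to these genes.

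**Figure D1:**
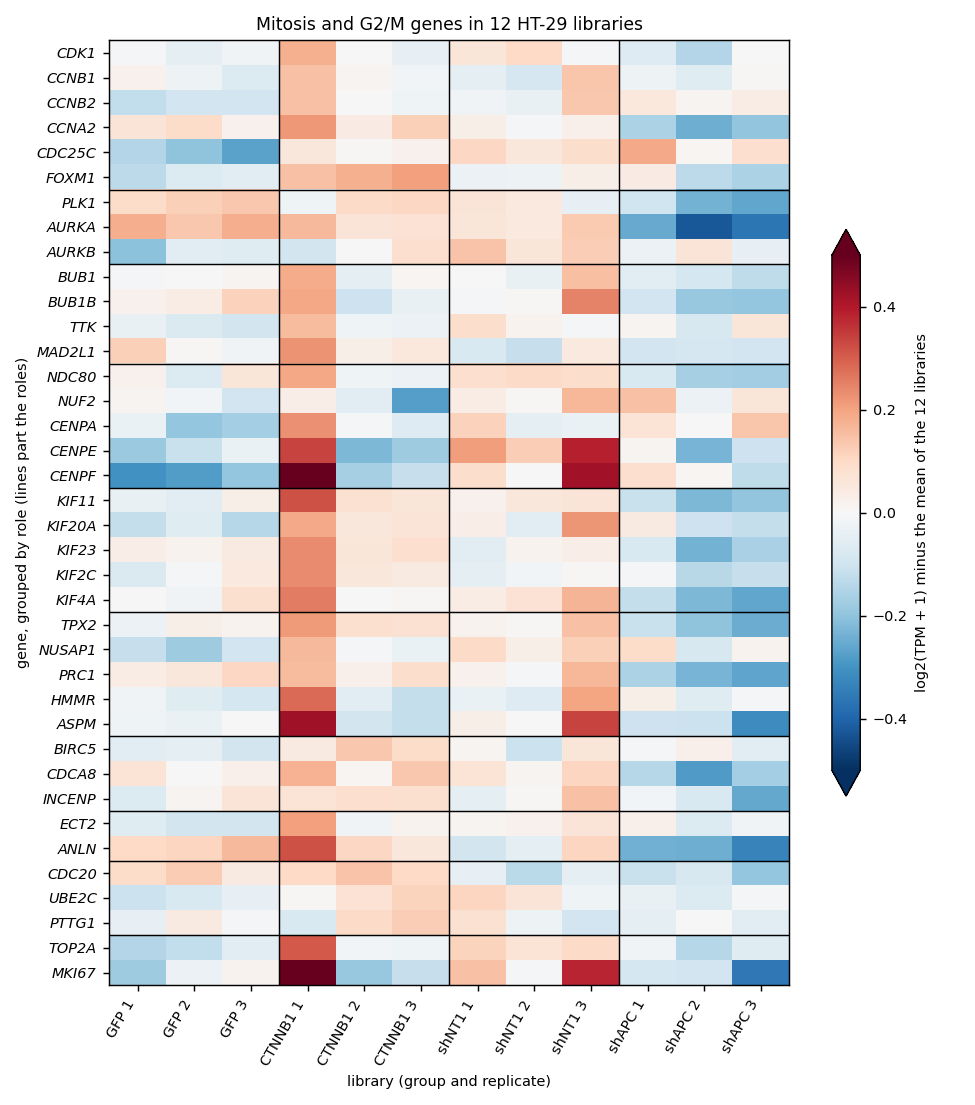
Level of each of the 38 genes (rows, grouped by role) in each of the 12 libraries (columns), as log2(TPM + 1) minus the mean of that gene over the libraries, with the colour scale limited to ± 0.5. The column of CTNNB1 replicate 1 is red in most rows and that of shNT1 replicate 3 in many, while the shAPC columns are mostly blue.

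The libraries CTNNB1 replicate 1 and shNT1 replicate 3 stood apart from their groups in these genes. The sum over the genes was 5490 TPM in CTNNB1 replicate 1 against 4888 and 4907 in its partners, and 5153 in shNT1 replicate 3 against 4892 and 4781. CTNNB1 replicate 1 was the highest of its group for 30 of the 38 genes and the highest of all 12 libraries for 23. shNT1 replicate 3 was the highest of its group for 26. A smaller excess was seen in shAPC replicate 1, with 4641 TPM against 4425 and 4445 in its partners, and it was the highest of its group for 28 genes. In CTNNB1 replicate 1 the excess was greatest for the genes with the longest transcripts. CENPF, a large kinetochore protein, stood at 116, 68.9 and 71.5 TPM in the CTNNB1 libraries and at 82.4, 77.4 and 104 TPM in shNT1. MKI67, which encodes the proliferation antigen Ki-67, stood at 184, 112 and 118 and at 141, 127 and 167 TPM. In both genes 1 library of each group lay far above its partners. Over the 38 genes, the excess of CTNNB1 replicate 1 over its partners had a Spearman rho of 0.57 with the longest GENCODE v29 transcript, and that of shNT1 replicate 3 a rho of 0.51. Over all 11215 genes with a length these were 0.37 and 0.16. Such trends were not particular to these libraries: over the 38 genes the deviation from the partners had a rho of 0.42 in shAPC replicate 1 (0.2 over all genes), 0.48 in GFP replicate 3, -0.66 in CTNNB1 replicate 2 and -0.52 in shNT1 replicate 1. TOP2A, with the fifth longest transcript, had an excess of 0.01 in shNT1 replicate 3. The genes share the library, so the rho values only describe it. The counts of members called and of the highest group mean are given with and without the libraries that stood apart. The counts without overlap, at an unadjusted p, by role and of the other lists are given with all libraries only.

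**Figure D2:**
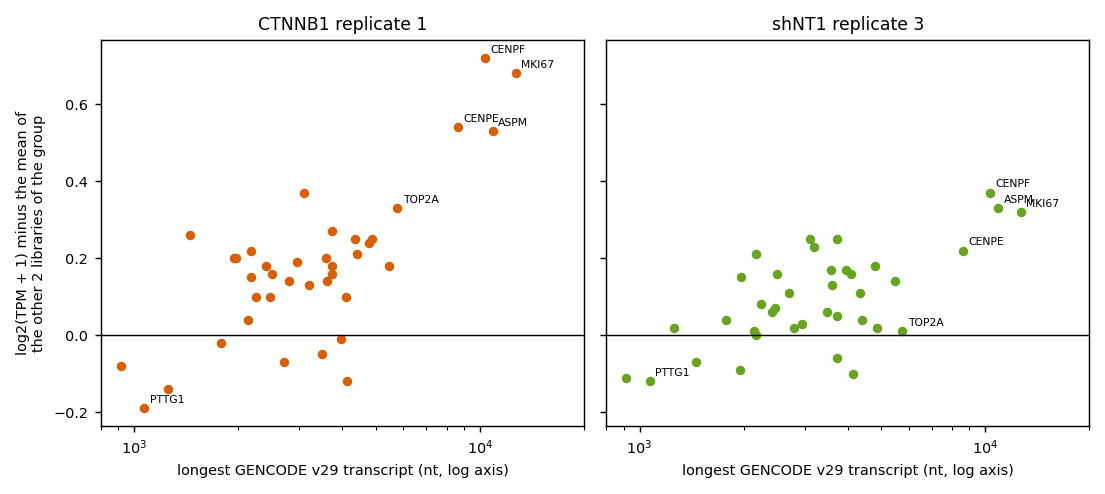
Excess of CTNNB1 replicate 1 (left) and shNT1 replicate 3 (right) over the mean of the other libraries of their group, as log2(TPM + 1), against the longest annotated transcript of each of the 38 genes (log axis). CENPF, MKI67, ASPM and CENPE, the members with transcripts of 8612 nt or more, lie highest on the left, at 0.53 to 0.72.

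Between 14756 and 16186 genes were above 0 per library, and libraries of a group correlated at 0.9912 to 0.9974 (Pearson, log2(TPM + 1), across genes). Sequencing depth is not known, since TPM does not keep it. APC fell from 16.4 ± 0.8 TPM in shNT1 to 5.99 ± 0.56 in shAPC, while CTNNB1 stood at 146 ± 2.9 TPM in GFP and at 160.1 ± 4.2 TPM with the CTNNB1 virus (SD over 3 libraries), where construct and endogenous transcripts cannot be told apart. The defining markers of the labelled tissue were checked. Of 11 colon epithelial markers 8 reached a mean of 1 TPM, while CDX1, CDX2 and CDH17 did not, and the summed level was 11583 to 11732 TPM in GFP, 12802 to 12894 in the CTNNB1 group, 9683 to 11326 in shNT1 and 9211 to 10176 in shAPC. None of 8 fibroblast markers reached 1 TPM. Of 8 leukocyte markers CD14 and CD68 did, while CD3E, CD8A and MS4A1 were listed at 0 in every library. The summed leukocyte list moved with both treatments, from 28.8 to 30.2 TPM in GFP and 14.9 to 17.2 in the CTNNB1 group, and from 15.3 to 17.5 in shNT1 and 8.99 to 11.4 in shAPC, and its part in the results on the mitotic genes was not tested.

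With the CTNNB1 virus most of the mitotic genes stayed near their level in GFP. By limma with Benjamini-Hochberg adjustment over the 11624 genes tested, 4 of the 38 rose (10.5%, where 16.3% of all genes tested were called higher) and 0 fell (7.16% of all genes). Those that rose were FOXM1, CDC25C, KIF20A and BIRC5, by between 11.6% and 20.1%. At an unadjusted p under 0.05, 12 were higher and 0 lower, and the share of all genes at this threshold is not given here. The log2 fold change, or log2 change, is the difference between group means of log2(TPM + 1). Its median over the 38 was 0.09, beside 0.06 for all genes tested. Above 0 lay 34 of the 38, the side on which the median of all genes lay too. The groups did not overlap for 15 genes, all higher in the CTNNB1 group (39.5%, where 43.2% of all genes did not overlap and 30.2% lay higher). Under median-ratio scaling, which sets the median change of all genes to 0, 2 members were called higher (FOXM1 and CDC25C) and 1 lower (AURKA), with a median of 0.03. Of all genes 23.5% were called in either direction, as in the main fit. The count of members was 2 without GFP replicate 1, 1 without GFP replicate 2 and 1 without GFP replicate 3. In those fits the share of all genes called in either direction fell too, to 13.9%, 12.9% and 14.6%. Under quantile normalization 5 members were called (21.9% of all genes were), of which FOXM1 and KIF20A were among the 4, while CCNB2, UBE2C and NUSAP1 came in. Without CTNNB1 replicate 1, the library that stood apart, 5 members were called (27.5% of all genes were). The member median was then 0.04, beside 0.04 for all genes.

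Of CDK1, its cyclins and the regulators of mitotic entry, 2 of 6 rose. FOXM1, the transcription factor that activates many genes of G2 and mitosis, stood at 78.8, 82.4 and 83.2 TPM in the GFP libraries and at 95.8, 97.8 and 99.9 TPM in the CTNNB1 libraries. All 3 CTNNB1 libraries lay above all 3 GFP libraries, with CTNNB1 replicate 1 the lowest of its group. The means were 81.5 ± 2.3 and 97.9 ± 2.1 TPM (SD, n = 3 each; log2 change 0.26, SE 0.05, adjusted p = 0.0036 by limma), and FOXM1 was called under every alternative run for this arm that used an adjusted p of 0.05, leaving out any one library included. CDC25C stood at 24.5, 23.5 and 22.5 TPM in the GFP libraries and at 28.4, 27.4 and 27.7 TPM in the CTNNB1 libraries. The groups did not overlap for this CDK1-activating phosphatase (log2 change 0.23, SE 0.06, adjusted p = 0.016 by limma), and it was not called without GFP replicate 2 (adjusted p = 0.066) or GFP replicate 3 (limma adjusted p = 0.072), or under quantile normalization (0.054). CCNB2 stood at 251, 256 and 256 TPM in the GFP libraries and at 303, 274 and 269 TPM in the CTNNB1 libraries. This B-type cyclin was higher in all 3 CTNNB1 libraries but did not pass the test (log2 change 0.15, SE 0.05, adjusted p = 0.067 by limma). CCNB1 stood at 314, 303 and 295 TPM in the GFP libraries and at 342, 312 and 306 TPM in the CTNNB1 libraries, with CTNNB1 replicate 3 inside the range of GFP (log2 change 0.07, SE 0.05, adjusted p = 0.34 by limma). CDK1 stood at 115, 112 and 114 TPM in the GFP libraries and at 131, 115 and 112 TPM in the CTNNB1 libraries, and the groups of the mitotic kinase overlapped (log2 change 0.07, SE 0.06, adjusted p = 0.43 by limma). CCNA2, cyclin A2, had a log2 fold change of 0.06.

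Of the kinesin motors, which move and shape the spindle, 1 of 5 rose. KIF20A, a motor of the central spindle and cytokinesis, stood at 41.8, 43.6 and 41.1 TPM in GFP and at 52, 47.4 and 47.6 TPM in the CTNNB1 libraries, without overlap (log2 change 0.21, SE 0.06, adjusted p = 0.024 by limma). It was not called without GFP replicate 1 (adjusted p = 0.085), GFP replicate 2 (0.058) or GFP replicate 3 (limma adjusted p = 0.09), nor under median-ratio scaling (0.056). The other motors lay between 0.07 and 0.17, of which KIF11, the motor that pushes the spindle poles apart, was higher in all 3 CTNNB1 libraries (116, 98 and 97 against 90.6, 89.5 and 94.8 TPM) without passing the test (limma adjusted p = 0.1). Of the chromosomal passenger subunits, BIRC5 (survivin) rose, from 89.3, 89.8 and 87.1 TPM in GFP to 95.9, 102 and 99.1 TPM. Its groups did not overlap (log2 change 0.16, SE 0.05, adjusted p = 0.036 by limma), but it had the smallest change of the genes called and lost its call without any of the GFP libraries (limma adjusted p of 0.1, 0.11 and 0.12), without CTNNB1 replicate 2 (0.13) or CTNNB1 replicate 3 (0.06), under median-ratio scaling (0.22) and quantile normalization (0.066), and without a mean-variance trend (0.071).

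In the remaining roles 0 members were called by limma in the CTNNB1 arm. The Polo and Aurora kinases lay between -0.07 and 0.1 on the log2 scale. AURKA, which matures the spindle poles, was at 164, 159 and 164 TPM in GFP and at 162, 152 and 152 TPM under CTNNB1, and these groups overlapped (log2 change -0.07, SE 0.05, adjusted p = 0.33 by limma). The 4 checkpoint genes lay between -0.04 and 0.1. The kinetochore genes lay between -0.07 and 0.36, the upper end being CENPF, where CTNNB1 replicate 1 lay far above all other libraries of the arm (log2 change 0.36, SE 0.16, adjusted p = 0.14 by limma). Without that library its log2 change was 0.12 (limma adjusted p = 0.082). TOP2A stood at 299.9, 304 and 319 TPM in the GFP libraries and at 411, 329 and 327 TPM in the CTNNB1 libraries. The lowest CTNNB1 library of TOP2A was above the highest GFP library, but CTNNB1 replicate 1 lay far above its partners (log2 change 0.2, SE 0.08, adjusted p = 0.11 by limma), without which the log2 change was 0.09. MKI67 stood at 113, 125 and 129 TPM in the GFP libraries and at 184, 112 and 118 TPM in the CTNNB1 libraries, so that the groups of MKI67 overlapped (log2 change 0.13, SE 0.16, adjusted p = 0.56 by limma). Without CTNNB1 replicate 1 the log2 fold change of MKI67 was -0.091 (limma adjusted p = 0.27). CDC20 stood at 196, 201 and 189.5 TPM in the GFP libraries and at 197, 203 and 197 TPM in the CTNNB1 libraries. This activator of the anaphase-promoting complex differed by less than the spread of its libraries (log2 change 0.03, SE 0.04, adjusted p = 0.66 by limma), and its change turned to -0.036 under median-ratio scaling.

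**Figure D3:**
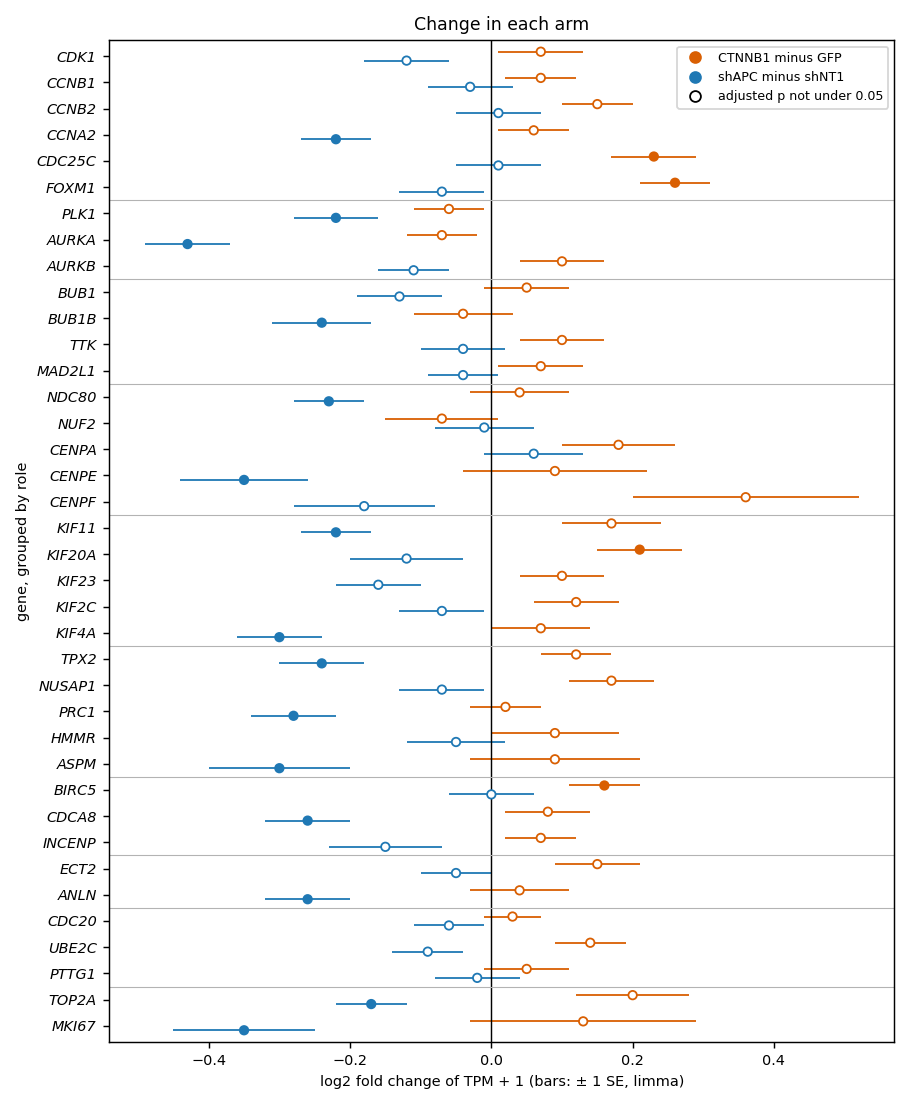
Log2 fold change of TPM + 1 of each of the 38 genes (rows, grouped by role) for CTNNB1 minus GFP (orange) and shAPC minus shNT1 (blue). Bars are ± 1 SE and filled points have a limma adjusted p under 0.05: 4 filled orange points, all right of 0, and 15 filled blue points, all left of 0.

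Under the hairpin against APC, many of the mitotic genes fell and none passed the test upwards. By limma, 15 of 38 fell (39.5%, where 14.9% of all 11834 genes tested were called lower) and 0 rose (7.24% of all genes). Their means fell by 10.8% (TOP2A) to 25.6% (AURKA). At an unadjusted p under 0.05, 16 were lower and 0 higher, again without the share of all genes at this threshold. The median log2 fold change of the 38 was -0.13, beside -0.04 for all genes. Below 0 lay 35 of the 38, the side on which the median of all genes lay too. The groups did not overlap for 17 members, all lower (44.7%, where 40.9% of all genes did not overlap and 26.4% lay lower). Scaling did not turn the direction of the median: 13 members were called lower with a median of -0.08 under median-ratio scaling, and 10 with a median of -0.05 under quantile normalization, where 15 of the 38 lay above 0. Of all genes 24.1% and 22.9% were called in either direction in these fits, beside 22.1% in the main fit. For the alternative fits the share called lower is not given. The count of members was 7 without shAPC replicate 2, 7 without shAPC replicate 3 and 11 without shNT1 replicate 3, the library that stood apart. In those fits the share of all genes called fell too, to 13.9%, 12.6% and 19%. With no filter on low values, which brings 17968 genes into the adjustment, the count of members was 9, and 10.7% of all genes were called.

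Of the Polo and Aurora kinases 2 of 3 fell, and AURKA had the largest log2 fold change of the 38 genes in this arm. AURKA stood at 151, 149.9 and 159 TPM in the shNT1 libraries and at 122, 108 and 113 TPM in the shAPC libraries. Every shAPC library lay below every shNT1 library, by a gap wider than the spread of either group. The means were 153 ± 4.9 and 114 ± 7 TPM (SD, n = 3 each; log2 change -0.43, SE 0.06, adjusted p = 0.00075 by limma), and the call held under each alternative run, with an adjusted p of at most 0.0071. PLK1, the Polo kinase that drives entry into and passage through mitosis, fell from 117 ± 4.6 to 100.3 ± 6.2 TPM (log2 change -0.22, SE 0.06, adjusted p = 0.023 by limma). It was not called without shNT1 replicate 1 (0.082), shNT1 replicate 2 (0.065), shAPC replicate 2 (0.078) or shAPC replicate 3 (limma adjusted p = 0.087), nor under quantile normalization (0.1), with no filter (0.05) or without a mean-variance trend (0.053). AURKB, the kinase of the chromosomal passenger complex, had overlapping groups (log2 change -0.11, SE 0.05, adjusted p = 0.18 by limma).

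Among the spindle and microtubule-binding proteins 3 of 5 fell. PRC1, which bundles the microtubules of the central spindle, stood at 162, 159 and 179.9 TPM in shNT1 and at 143, 136 and 133 TPM in shAPC. The groups were apart (log2 change -0.28, SE 0.06, adjusted p = 0.0089 by limma), and PRC1 was called in each of the fits that left out one library. TPX2, the activator of Aurora A on the spindle, fell from 316, 313 and 345 to 289, 272 and 263 TPM without overlap (log2 change -0.24, SE 0.06, adjusted p = 0.015 by limma), and was not called without shAPC replicate 2 (0.053) or shAPC replicate 3 (limma adjusted p = 0.063). ASPM stood at 42.2, 41.3 and 52.6 TPM in the shNT1 libraries and at 38.4, 38.3 and 33.1 TPM in the shAPC libraries. ASPM, a spindle pole protein, had shNT1 replicate 3 far above its partners, and its fall barely passed (log2 change -0.3, SE 0.1, adjusted p = 0.049 by limma). Without shNT1 replicate 3 its log2 change was -0.19 and its adjusted p 0.1, without shAPC replicate 1, 2 or 3 it was 0.089, 0.083 and 0.17, and under median-ratio scaling 0.062 (limma). Its adjusted p was at or above the threshold under 6 other alternatives with all libraries too. NUSAP1 (-0.07) and HMMR (-0.05) were not called.

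Of the kinesins 2 of 5 fell. KIF4A stood at 51.6, 53 and 56.7 TPM in the shNT1 libraries and at 46.2, 42.9 and 41.8 TPM in the shAPC libraries. The groups of this chromosome-bound motor did not overlap, and the fall was called whichever library was left out (log2 change -0.3, SE 0.06, adjusted p = 0.0074 by limma). KIF11 stood at 94.4, 96.8 and 97.2 TPM in the shNT1 libraries and at 86.1, 79.5 and 80.9 TPM in the shAPC libraries. shNT1 was tight for KIF11 and all 3 shAPC libraries lay below it (log2 change -0.22, SE 0.05, adjusted p = 0.013 by limma), though without shAPC replicate 2 the adjusted p was 0.052 (limma). KIF23, a motor of the central spindle, was lower without overlap but did not pass (log2 change -0.16, SE 0.06, adjusted p = 0.074 by limma), and KIF20A (-0.12) and KIF2C (-0.07) were not called.

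Of the 5 kinetochore and centromere genes 2 fell. CENPE stood at 21.8, 20.4 and 24.8 TPM in the shNT1 libraries and at 18.9, 15.8 and 17.3 TPM in the shAPC libraries. All shAPC libraries of this motor lay below all shNT1 libraries (log2 change -0.35, SE 0.09, adjusted p = 0.018 by limma). CENPE was not called without shAPC replicate 2 (0.072) or shAPC replicate 3 (0.053), with no filter (0.064) or in one fit of all 4 groups (limma adjusted p = 0.052). NDC80, the microtubule-binding core of the outer kinetochore, fell from 67.3 ± 0.29 to 57.3 ± 2.3 TPM (log2 change -0.23, SE 0.05, adjusted p = 0.012 by limma), while its partner NUF2 stood at 45.2 ± 2.8 and 44.9 ± 2.8 TPM (log2 fold change -0.01, SE 0.07). CENPF had overlapping groups (-0.18, SE 0.1, and -0.06 without shNT1 replicate 3), and CENPA, the histone variant of centromeres, had a log2 fold change of 0.06. Of the checkpoint genes BUB1B (BubR1) fell (log2 change -0.24, SE 0.07, adjusted p = 0.038 by limma). It was not called without shNT1 replicate 3 (0.073) or without shAPC replicate 1, 2 or 3 (limma adjusted p of 0.06, 0.11 and 0.11). Nor was BUB1B called with no filter (0.097), under quantile normalization (0.081), without a mean-variance trend (0.076) or with a replicate block (limma adjusted p = 0.064). BUB1 was lower without overlap but not called (-0.13, limma adjusted p = 0.15), and TTK and MAD2L1 each lay at -0.04.

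Of the genes of mitotic entry 1 of 6 fell, CCNA2, from 159.9 ± 2.4 to 138 ± 4 TPM (log2 change -0.22, SE 0.05, adjusted p = 0.011 by limma). It was called whichever library was left out. The B-type cyclins and their kinase were not called. CCNB1 stood at 299, 292 and 341 TPM in the shNT1 libraries and at 304, 297 and 310.3 TPM in the shAPC libraries. The shAPC libraries lay within the range of shNT1 (log2 change -0.03, SE 0.06, adjusted p = 0.78 by limma), and the change turned to 0.022 with median-ratio scaling and to 0.032 with quantiles matched. CCNB2 stood at 269.7, 266 and 300.3 TPM in the shNT1 libraries and at 283, 276 and 280.1 TPM in the shAPC libraries, again with overlap (log2 change 0.01, SE 0.06, adjusted p = 0.93 by limma). CDK1 stood at 120.3, 124 and 115 TPM in the shNT1 libraries and at 110.3, 104 and 115 TPM in the shAPC libraries. The groups of CDK1 overlapped at their edge (log2 change -0.12, SE 0.06, adjusted p = 0.15 by limma). FOXM1 stood at 84.7, 84.9 and 88.3 TPM in shNT1 and at 88.9, 78.9 and 77.4 TPM in shAPC, where replicate 1 was the highest of the 6 libraries (log2 change -0.07, SE 0.06, adjusted p = 0.42 by limma; 0.013 under quantile normalization). CDC25C had a log2 fold change of 0.01 (SE 0.06).

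The chromosomal passenger subunit CDCA8 (borealin) fell, from 59.1, 56.9 and 60.8 to 51, 46.2 and 49.9 TPM. The groups were well apart and the call held whichever library was left out (log2 change -0.26, SE 0.06, adjusted p = 0.011 by limma). The scaffold INCENP (-0.15, limma adjusted p = 0.18) was not called, and BIRC5 stood at 92.4 ± 5.6 and 92.2 ± 2.6 TPM. Of the cytokinesis genes ANLN, an actin-binding scaffold of the contractile ring, fell (log2 change -0.26, SE 0.06, adjusted p = 0.014 by limma; without shAPC replicate 3, adjusted p = 0.059), and ECT2, the activator of RhoA at the division plane, was not called (-0.05). The genes of anaphase onset, 0 of 3 of which were called by limma, lay between -0.09 and -0.02. CDC20 stood at 179, 167 and 178 TPM in the shNT1 libraries and at 170.2, 174 and 161 TPM in the shAPC libraries. The groups overlapped (log2 change -0.06, SE 0.05, adjusted p = 0.49 by limma; 0.029 under quantile normalization). TOP2A and MKI67 both fell. TOP2A stood at 358, 348 and 355 TPM in the shNT1 libraries and at 328, 300.1 and 318 TPM in the shAPC libraries. The groups of TOP2A did not overlap (log2 change -0.17, SE 0.05, adjusted p = 0.04 by limma), but the call was lost under median-ratio scaling (0.099) and in 5 of the 6 fits that left out a library, all but the one without shAPC replicate 1, with an adjusted p of at most 0.14 (limma). Quantile normalization (0.11), one fit of all 4 groups (0.11) and a replicate block (0.09) lost it too. So did no mean-variance trend (0.087), no filter (0.057) and removal of the length trend (limma adjusted p = 0.054). MKI67 stood at 141, 127 and 167 TPM in the shNT1 libraries and at 119.9, 119 and 99.5 TPM in the shAPC libraries. The lowest shNT1 library of MKI67 was above the highest shAPC library (log2 change -0.35, SE 0.1, adjusted p = 0.032 by limma). Its adjusted p was 0.057 without shNT1 replicate 3, 0.063, 0.056 and 0.12 without shAPC replicate 1, 2 and 3, 0.078 under quantile normalization and 0.11 with no filter (limma). The call of MKI67 was also lost without a mean-variance trend (0.069), with a replicate block (0.052) and in one fit of all 4 groups (0.1), and was kept under median-ratio scaling (limma adjusted p = 0.045). Without shNT1 replicate 3 its log2 change was -0.25.

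**Figure D4:**
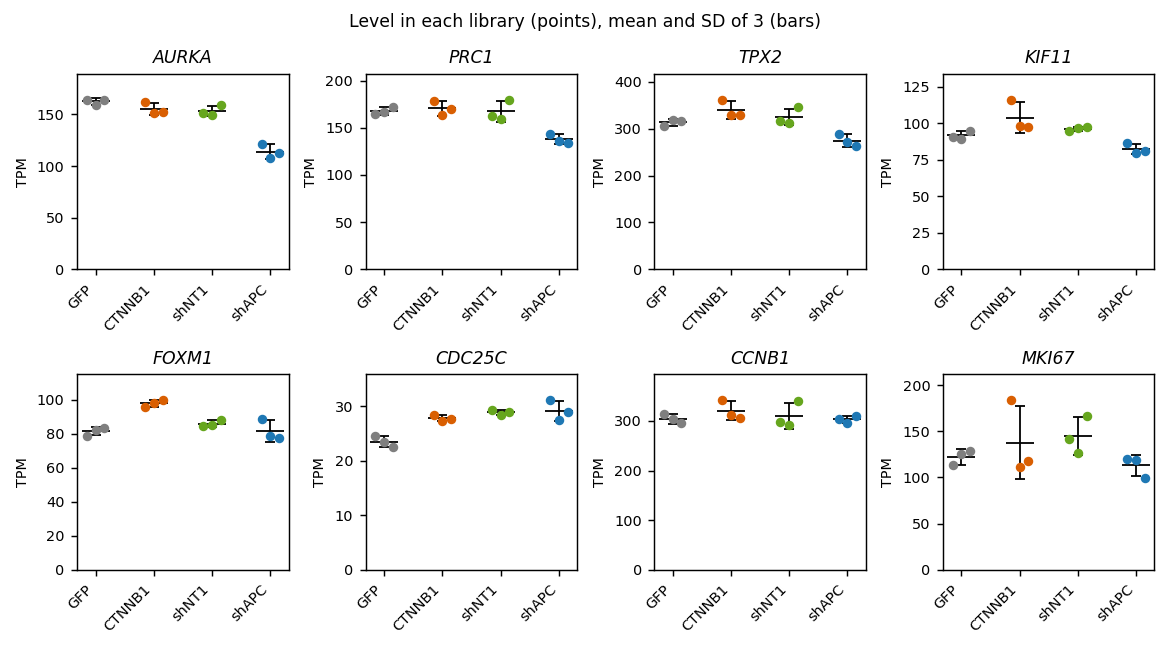
TPM of 8 of the genes in each library (points), with the group mean and SD of 3 libraries (bars), on axes that start at 0. The shAPC libraries of AURKA, PRC1, TPX2 and KIF11 lie below all shNT1 libraries, the CTNNB1 libraries of FOXM1 and CDC25C above all GFP libraries, and the CCNB1 groups overlap. CTNNB1 replicate 1 lies far above its partners in MKI67.

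Transcript length went along with the fall. The longest transcript had a median of 4135 nt in the 15 members that fell and 2711 nt in the 23 that were not called, beside 3579 nt over all genes tested in this arm with a length. Across the 38 genes the log2 fold change under shAPC had a Spearman rho of -0.53 with length, and that under CTNNB1 a rho of 0.11. With each library's trend with length removed, 14 members were called lower under shAPC (median -0.14) and 9 higher under CTNNB1 (median 0.11). The medians of all genes were -0.04 and 0.05 in these fits. Of all genes 23.7% and 25.5% were then called in either direction.

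To compare the response of the 38 genes between arms, the CTNNB1 effect minus the shAPC effect was taken from a single model of the 12 libraries. The difference was positive for 37 of the 38 and was called for 14 (36.8%, where 13.3% of the 11741 genes tested were called positive), with 0 called negative (2.76% of all genes). At an unadjusted p under 0.05, 27 were positive and 0 negative, without the share of all genes at this threshold. The median difference of the members was 0.23, beside 0.11 for all genes, which thus leaned the same way. Under median-ratio scaling, where the median of all genes moved to 0, 7 members were called (KIF4A, KIF11, AURKA, FOXM1, TPX2, PRC1 and CDCA8) with a median of 0.11, and under quantile normalization 5 (KIF11, AURKA, FOXM1, TPX2 and PRC1) with a median of 0.15. Of all genes 12.3% and 11.9% were called in either direction in these fits, beside 16.1% in the main fit. For the alternative fits the share called positive is not given. The count of members was 6 without GFP replicate 1, 6 without GFP replicate 2, 8 without shNT1 replicate 3, 7 without shAPC replicate 2 and 7 without shAPC replicate 3. In those fits the share of all genes called fell too, to 9.29%, 8.46%, 11.1%, 10.6% and 8.7%. With both CTNNB1 replicate 1 and shNT1 replicate 3 left out the count of members was 10 (12.3% of all genes were called). The member median was then 0.17, beside 0.08 for all genes. Of those called, the larger differences were those of KIF11 (0.4, SE 0.09, limma adjusted p = 0.0099), TOP2A (0.36, SE 0.1, limma adjusted p = 0.028), KIF4A (0.36, SE 0.1, limma adjusted p = 0.026), AURKA (0.36, SE 0.07, limma adjusted p = 0.0053), TPX2 (0.36, SE 0.08, limma adjusted p = 0.0078), KIF20A (0.34, SE 0.1, limma adjusted p = 0.037), FOXM1 (0.34, SE 0.08, limma adjusted p = 0.01) and CDCA8 (0.34, SE 0.08, limma adjusted p = 0.012). Of these, AURKA, CDCA8, FOXM1, KIF11 and TPX2 were called whichever library was left out, while TOP2A, KIF4A and KIF20A were not (largest limma adjusted p 0.07, 0.069 and 0.092). For KIF11 the log2 fold changes were 0.17 under CTNNB1 and -0.22 under shAPC, for TPX2 0.12 and -0.24, for CDCA8 0.08 and -0.26, and for AURKA -0.07 and -0.43, so that AURKA lay below its control in both arms. Of the kinesins 4 of 5 were called, but KIF20A and KIF23 each lost the call in 8 of the 12 fits that left out a library and under both other scalings, and KIF4A under quantile normalization. Of the checkpoint genes 0 of 4 were called by limma. Vector, collection day and doxycycline go with the arms and cannot be told apart from the difference between them.

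Other genes of mitosis, 123 in 7 lists, were all tested. In the CTNNB1 arm 13 rose (10.6%, with 16.3% of all genes) and 2 fell (1.63%, with 7.16% of all genes), with a median of 0.08. In the shAPC arm 4 rose (3.25%, with 7.24% of all genes) and 33 fell (26.8%, with 14.9% of all genes), with a median of -0.14. Condensin subunits, which compact chromosomes, fell under shAPC in 5 of 8 cases, among them SMC4 (135 ± 5.9 to 108 ± 8.2 TPM, log2 change -0.32), NCAPG (69.2 ± 1.9 to 55.3 ± 2.5 TPM, log2 change -0.32) and NCAPD3 (97.1 ± 4.9 to 79.8 ± 3.6 TPM, log2 change -0.28). The others were NCAPG2 (-0.24) and NCAPH (-0.21). Of 26 further spindle, motor and cytokinesis genes 12 fell and 1 rose under shAPC. The largest falls were those of KIF20B (67.8 ± 5.2 to 50.8 ± 1.4 TPM, log2 change -0.41), ARHGAP11A (49.5 ± 3.6 to 37.3 ± 1.8 TPM, log2 change -0.4) and CKAP2L (21.8 ± 1.2 to 16.5 ± 1.4 TPM, log2 change -0.38). The one that rose was STMN1 (204 ± 5.7 to 240.4 ± 9 TPM, log2 change 0.24), which encodes stathmin, a protein that takes microtubules apart. Of 14 genes of cohesin, the ring that holds sister chromatids together, and its regulators 2 fell (14.3%, near the 14.9% of all genes), SMC1A (135 ± 8.8 to 109 ± 6.1 TPM, log2 change -0.3) and SMC3 (139 ± 8.6 to 116 ± 6.2 TPM, log2 change -0.26). Of 31 further kinetochore genes 6 fell (19.4%, with 14.9% of all genes), led by MIS18A (30.7 ± 3.5 to 23.4 ± 1.5 TPM, log2 change -0.37), SPC24 (19.3 ± 1.8 to 15.5 ± 0.55 TPM, log2 change -0.3) and CENPW (12.4 ± 1 to 10.1 ± 0.84 TPM, log2 change -0.27).

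Of 16 genes listed under CDK1 control, not each of which is a known CDK1 regulator, 2 fell under shAPC (12.5%, with 14.9% of all genes). These were CDC25A (28.2 ± 1.3 to 17 ± 0.31 TPM, log2 change -0.7), a phosphatase that activates cyclin-dependent kinases and a larger fall than that of any of the 38 genes, and CCNF (30.4 ± 1.8 to 25.4 ± 1.9 TPM, log2 change -0.25). Of 12 genes of the DREAM, MuvB and MYB complexes 3 fell (25%), among them RBL1 (25.3 ± 1.7 to 18.8 ± 0.67 TPM, log2 change -0.41) (p107) and LIN54 (24.6 ± 1.1 to 19.8 ± 1 TPM, log2 change -0.3), the subunit that binds the CHR, and 1 rose (8.33%, with 7.24% of all genes), TFDP2 (7.55 ± 0.33 to 9.58 ± 0.7 TPM, log2 change 0.31). The other that fell was TFDP1 (-0.23). Of 16 genes of the anaphase-promoting complex and its ubiquitin-conjugating partners 3 fell (18.8%) and 2 rose (12.5%), the largest changes being those of UBE2S (283 ± 32 to 235 ± 13 TPM, log2 change -0.27), ANAPC5 (111 ± 9.7 to 94 ± 4.7 TPM, log2 change -0.24) and ANAPC13 (43.1 ± 3.4 to 51.1 ± 0.91 TPM, log2 change 0.24). ANAPC4 (-0.21) also fell and CDC26 (0.23) also rose. Of the genes named from these lists in this arm, SMC3, NCAPG2, NCAPH, SPC24, CENPW, CCNF, TFDP1, TFDP2, UBE2S, ANAPC4, ANAPC5, ANAPC13 and CDC26 were not called in at least 1 fit that left out a library, with adjusted p between 0.05 and 0.13 (limma). NCAPH was not called in any of these 6 fits.

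Under CTNNB1 the largest rise among these genes was that of STMN1 (143 ± 4.5 to 229 ± 13 TPM, log2 change 0.67), so that it rose in both arms. It was called whichever library was left out (limma adjusted p = 3.8e-05). Of the same list ZWILCH (83.4 ± 1.7 to 93.8 ± 3.8 TPM, log2 change 0.17) rose too. In the DREAM, MuvB and MYB list 3 of 12 rose (25%, with 16.3% of all genes), TFDP2 (6.04 ± 0.18 to 8.79 ± 0.76 TPM, log2 change 0.47), MYBL2 (167 ± 1 to 210.0 ± 12 TPM, log2 change 0.33), which encodes B-MYB, and RBBP4 (124 ± 2.4 to 145 ± 7.4 TPM, log2 change 0.22). Of the genes listed under CDK1 control, 12.5% of which rose and 6.25% fell, CDC25B (41.4 ± 2.2 to 48.7 ± 1.1 TPM, log2 change 0.23) and ARPP19 (131 ± 2.4 to 152 ± 6.2 TPM, log2 change 0.21) rose and CKS2 (689.6 ± 29 to 619 ± 25 TPM, log2 change -0.16) fell. Among kinetochore genes, 9.68% of which rose and 3.23% fell, CENPH (108 ± 2 to 131 ± 7.9 TPM, log2 change 0.28) and SKA2 (55.4 ± 2.1 to 64.3 ± 2.7 TPM, log2 change 0.21) rose, as did CENPP (0.29), and CENPX (87.6 ± 3.3 to 65.4 ± 12 TPM, log2 change -0.43) fell. One gene rose in each of 3 lists (6.25%, 12.5% and 7.14% of the genes in them): ANAPC1 (50 ± 0.51 to 58.3 ± 3.1 TPM, log2 change 0.22), NCAPH (25.1 ± 0.79 to 28.5 ± 1.1 TPM, log2 change 0.18) and STAG2 (104 ± 2 to 122 ± 13 TPM, log2 change 0.21). All of these but CENPH, STMN1, MYBL2 and TFDP2 lost their call without at least 1 of the GFP libraries, with adjusted p between 0.051 and 0.16 (limma).

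The shAPC response was not limited to genes of mitosis. Of 42 genes of DNA replication, taken as the closest other stage of the cell cycle, 16 fell under shAPC (38.1%, with 14.9% of all genes) and 0 rose, with a median of -0.18. The larger falls were those of RRM2 (258 ± 10 to 191 ± 5.7 TPM, log2 change -0.43), the ribonucleotide reductase subunit of S phase, UHRF1 (46.6 ± 6.7 to 34.8 ± 3.1 TPM, log2 change -0.4) and SLBP (129 ± 9 to 102 ± 2.6 TPM, log2 change -0.33). Under CTNNB1 8 of the 42 rose (19%, near the 16.3% of all genes) and 0 fell, with a median of 0.1, among them UHRF1 (46.9 ± 2.5 to 55.4 ± 1.2 TPM, log2 change 0.24) and TK1 (205 ± 4.6 to 239 ± 18 TPM, log2 change 0.21). TK1 was not called in 5 of the 6 fits that left out a library, all but the one without CTNNB1 replicate 1 (largest limma adjusted p 0.095). UHRF1 was not called under CTNNB1 without GFP replicate 1 (0.066) or GFP replicate 2 (0.067), nor under shAPC without shAPC replicate 3 (limma adjusted p = 0.064). The difference between arms was called positive for 24 of the 42 (57.1%, with 13.3% of all genes) and for 14 of the 38 mitotic genes. Whether these shares differ from each other was not tested.

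The authors' own tables, made with limma by a model the sources used here do not give, were set beside these values. In the authors' deposited table for the CTNNB1 comparison 2 of the 38 genes had an adjusted p under 0.05, FOXM1 higher (log2 fold change 0.19, adjusted p = 0.043) and AURKA lower (-0.14, adjusted p = 0.0081), and 9.42% of its rows did. The median log2 fold change of the members in that authors' deposited table was 0.01. The CTNNB1 gene itself did not pass there (log2 fold change 0.06, adjusted p = 0.1 by the authors' limma). In the authors' deposited table for the hairpins 9 of the 38 had an adjusted p under 0.05, all lower, and 9.01% of its rows did, with a member median of -0.09. AURKA was again the largest of these in the authors' deposited table, at -0.39 (adjusted p = 0.0028). APC itself stood there at -1.41 (adjusted p = 0.00038 by the authors' limma).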

How the data were processed

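RNA-seq of 12 HT-29 libraries was analysed from the values the authors deposited. Reads were aligned with STAR 2.7.3a to hg38, per the submitters' processing notes; the quantifier, annotation and strand setting are not given in the sources used here. Per the file headers, the deposited table holds TPM per gene, which keeps no depth, and the authors' limma tables hold log2 fold changes, p-values and other statistics, such as a t and a B score. Here log2(TPM + 1) of genes with a mean of at least 1 TPM was fitted with limma 3.58.1 (R 4.3.3, moderated variances with a mean-variance trend), per arm and, for the difference between arms, over all 12 libraries. Benjamini-Hochberg adjustment ran over all genes tested and calls are at an adjusted p under 0.05. The pseudocount of 1 TPM makes fold changes understate the change of low genes. The fit was tested on simulated data with independent noise per gene and library. Those data held no deviations shared across the genes of a library, so they do not bear on the libraries that stood apart. The 38 genes and the other lists were chosen with earlier results of these data known. Named with values per library were CDK1, CCNB1, CCNB2, CDC20, MKI67 and TOP2A, the 6 called genes with the largest change per arm and up to 6 for the difference, and the highest and lowest by mean. From each other list up to 3 called genes per arm with a mean of at least 5 TPM were named; 1 gene that this rule names is not reported here. Other genes given with values, such as CENPF, NUF2 and CENPP, were chosen after their values were seen. Lengths are of the longest GENCODE v29 transcript, found for 95.5% (CTNNB1 arm) and 95.4% (shAPC arm) of genes tested. Promoter windows are from RefSeq (GRCh38.p14). Where FOXM1 and AURKA had no window, the next called genes by size with one were shown. Alternatives were other pseudocounts, filters, scalings, thresholds and models, a length correction, a replicate block and each library left out.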

Additional observations from a re-analysis of the deposited data

Results flagged for a closer look

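The genes below differed between arms by a test of the difference itself (CTNNB1 effect minus shAPC effect, limma adjusted p under 0.05), on the log2(TPM + 1) scale. Among the 38 mitotic genes these were KIF11 (0.4), AURKA, TPX2, TOP2A and KIF4A (each 0.36), KIF20A, FOXM1 and CDCA8 (each 0.34), ANLN and PRC1 (each 0.3), CCNA2 (0.28), NDC80 (0.27), KIF23 (0.25) and UBE2C (0.23). Of the 12 fits that left out a library, the call was lost in 10 for ANLN, 9 for NDC80, 8 each for KIF20A and KIF23, 7 for UBE2C, 6 for TOP2A, 5 for KIF4A and 3 for PRC1. ANLN, NDC80, KIF20A, KIF23, UBE2C, TOP2A and CCNA2 also lost it under both median-ratio scaling and quantile normalization, and KIF4A and CDCA8 under the latter. Among named genes of the other lists the largest were those of CDC25A (0.69), UHRF1 (0.64), RBL1 (0.56), CENPH (0.55), ARHGAP11A (0.54), MIS18A (0.53) and MYBL2 (0.52). ZWILCH (0.47), ANAPC1 and STMN1 (each 0.43), RRM2 and CCNF (each 0.4), SMC4, NCAPH, NCAPG and SMC1A (each 0.39), SLBP (0.35), STAG2 and TK1 (each 0.32), CDC25B and ARPP19 (each 0.29) and SKA2 (0.28) followed. CKS2 differed the other way (-0.27). Of these other genes, CKS2 lost its call in 8 of the 12 fits that left out a library, SMC4 in 6, STAG2 in 5, CDC25B and SMC1A in 4 each and SKA2 in 1. SMC4, STAG2, CDC25B and SKA2 also lost it under both median-ratio scaling and quantile normalization, and TK1 under the former (limma adjusted p = 0.13). With the length trend removed CKS2 stood at -0.12 (limma adjusted p = 0.25).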

How the results depend on the processing

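In the CTNNB1 arm the count of members called, 4 in the main analysis, was 9 with the length trend removed and 1 at an adjusted p under 0.01. Of all genes 23.5%, 25.5% and 10.8% were called in these, here and below in either direction. Leaving out one library gave 1 to 6 members, with 12.9% to 27.5% of all genes called. In the shAPC arm the count, 15, was 9 with no filter and 3 at an adjusted p under 0.01, and 7 to 13 with one library left out. Of all genes 22.1%, 10.7%, 9.73% and 12.6% to 19% were called in these. The member median of this arm was -0.049 under quantile normalization. For the difference between arms the count, 14, was 8 with no filter, 7 under median-ratio scaling, 5 under quantile normalization, 8 without a mean-variance trend and 3 at an adjusted p under 0.01, and 6 to 15 with one library left out. Of all genes 16.1%, 7.54%, 12.3%, 11.9%, 13.4%, 5.35% and 8.46% to 18.3% were called in these. The median difference was 0.11 with median-ratio scaling and 0.15 with quantile normalization. The cause of these moves was not tested. With no filter more genes entered the adjustment, but the unadjusted p-values moved too. Members at an unadjusted limma p under 0.05 went from 12 to 9 in the CTNNB1 arm, 16 to 18 under shAPC and 27 to 24 for the difference. Same-numbered libraries deviated together with r of 0.2157, 0.0697 and 0.1146 in the CTNNB1 arm, all above the -0.1826 to 0.0686 of differently numbered ones. In the shAPC arm r was -0.1463, -0.0064 and -0.206 for same-numbered libraries and -0.1201 to 0.199 for the others. Whether replicate numbers pair the libraries was not tested. With a replicate block the counts of members were 7, 11 and 14, and with a replicate block within each arm, chosen after seeing the data, 8 for the difference. Of all genes 24.9%, 14.9%, 14.9% and 9.75% were called in these fits. CCAAT letters on the strand of the gene alone were found in 14 genes.

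Changes of sign were seen in several members: under median-ratio scaling in 6 in the CTNNB1 arm, 7 in the shAPC arm and 4 for the difference, under quantile normalization in 0, 12 and 1, and with any one library left out in 11, 9 and 1. Among the members named with values per library they were as follows. In the CTNNB1 arm, leaving out one library gave ranges of -0.087 to 0.18 for ASPM, -0.092 to 0.19 for CENPE, -0.02 to 0.11 for KIF4A, -0.091 to 0.27 for MKI67 and -0.0095 to 0.055 for PRC1, the lowest in each case without CTNNB1 replicate 1. Under median-ratio scaling CDC20 was at -0.036 and PRC1 at -0.04. In the shAPC arm the ranges were -0.049 to 0.035 for BIRC5, -0.072 to 0.04 for CCNB1, -0.024 to 0.063 for CCNB2 and -0.037 to 0.053 for CDC25C. Under median-ratio scaling BIRC5 was at 0.05 and CCNB1 at 0.022. Under quantile normalization BIRC5 was at 0.082, CCNB1 at 0.032, CDC20 at 0.029 and FOXM1 at 0.013. With the length trend removed CDC25C was at -0.0041. For the difference, CCNB1 was at -0.011 and CDC20 at -0.029 under median-ratio scaling, and CCNB1 at -0.015 with both CTNNB1 replicate 1 and shNT1 replicate 3 left out, also chosen after seeing the data. Over the single genes, 814 of 950 values kept direction and side of the threshold under alternatives with all libraries, and 578 of 756 with one library left out. Depth is unknown, so counting error could not be set beside these differences.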
